A study of Mus musculus with 8 samples.

Results

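The 10 genes described here encode the mTOR kinase, the subunits that define its complexes and the proteins immediately upstream of it: Mtor, Rptor, Rictor, Tsc1, Tsc2, Rheb, Deptor, Ddit4, Akt1s1 and Lamtor1. They were taken by symbol from a table of 55276 gene symbols, and all 10 were present and had enough counts to be tested. mTOR is a protein kinase that couples nutrient and growth factor supply to growth. It works in mTORC1, defined by Raptor (Rptor), and in mTORC2, defined by Rictor. Amino acids bring mTORC1 to the lysosome through the Ragulator scaffold and the Rag GTPases, where Rheb switches it on and the tuberous sclerosis proteins Tsc1 and Tsc2 hold Rheb off. Active mTORC1 promotes translation and restrains autophagy, the delivery of cytoplasm to lysosomes.

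The study asked how basal cells of the mouse esophagus with few or many autophagic vesicles differ. Epithelium was peeled from the esophagus of C57BL6 mice aged 14 to 15 weeks, dissociated enzymatically (Dispase, then trypsin), and labelled with an antibody to integrin beta-1, with DAPI for dead cells and with Cyto-ID, a dye that marks autophagic vesicles. Integrin beta-1 positive, DAPI negative cells were sorted into a Cyto-ID Low and a Cyto-ID High fraction, and RNA of each fraction was sequenced in bulk. The animals Female1, Female2, Male1 and Male2 each gave 1 library of each fraction, so that the groups are Cyto-ID Low (n = 4) and Cyto-ID High (n = 4), with 2 females and 2 males in each. No treatment, transgene or allele is given for any animal. The labels call all libraries squamous cells of the esophageal epithelium. The dye reports vesicle content at the time of the sort, and measures neither the rate of autophagy nor the activity of mTOR.

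The fractions differed widely, which bears on every comparison below. Libraries held 26285150 to 28599954 counts in the Low fraction and 27486049 to 29301054 in the High fraction. Values are CPM, that is, library-size-scaled counts corrected by TMM (the trimmed mean of M values), with factors of 1.16 to 1.30 in Low and 0.679 to 0.944 in High libraries. Of 17344 genes tested with edgeR's quasi-likelihood test, 8440 (48.7%) passed a Benjamini-Hochberg adjusted p of 0.05, 4055 (23.4%) higher and 4385 (25.3%) lower in Cyto-ID High. Keratinocyte markers were abundant in all libraries. The 10 basal markers were all lower in High, among them Krt5 (log2 fold change −3.38), Krt14 (−2.11) and Itgb1 (−2.44), which encodes the integrin used in the gate, and summed to 22032 to 26255 CPM in Low and 2882 to 4577 CPM in High. The 8 suprabasal markers were all higher, among them Krt4 (3.75) and Krt13 (3.07), and summed to 8416 to 24780 CPM in Low and 134578 to 233959 CPM in High. In bulk RNA, fewer cells of a type and less RNA per cell cannot be told apart, and the part of this shift in the members' differences was not tested. High Male2 had the lowest TMM factor and the lowest leukocyte, fibroblast, endothelial and muscle marker sums, so values without it are given beside several results. Leukocyte markers summed to 49.6 to 83.3 CPM in Low and 24.4 to 98.6 CPM in High, fibroblast markers to 312 to 484 and 36.9 to 464 CPM, endothelial markers to 12.7 to 24.0 and 2.62 to 28.8 CPM, and muscle markers to 32.7 to 54.1 and 5.04 to 47.7 CPM. Gastric markers were found mainly in both Female2 libraries (17.3 CPM in Low and 108 CPM in High). In High Male2 the T cell genes Cd3e and Cd8a and the endothelial receptor gene Kdr had 0 counts, and in the 6 libraries of other animals than Female2 2 to 4 of 6 gastric markers were at 0.

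Of the 10 genes, Lamtor1 and Tsc2 were higher in Cyto-ID High, Deptor was lower, and the other 7 did not pass the threshold. That is 3 of 10, below the 48.7% called among all tested genes, with 2 higher against a background of 23.4% and 1 lower against 25.3%. The same 3 genes were those whose Low and High libraries did not overlap in CPM, which held for 48.6% of all tested genes. The median log2 fold change of the 10 was 0.14, beside −0.09 over all tested genes. Library scaling matters here. When libraries were scaled by total counts alone, the median over all genes was −0.64 in place of −0.09 (a median shift of −0.56 per gene), the share of calls that were higher went from 48.0% to 20.5%, and 9 of the 10 genes then had a negative value. Directions below are therefore under TMM and relative to the bulk of genes, with the total-count value beside each gene where it flips.

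**Figure D1:**
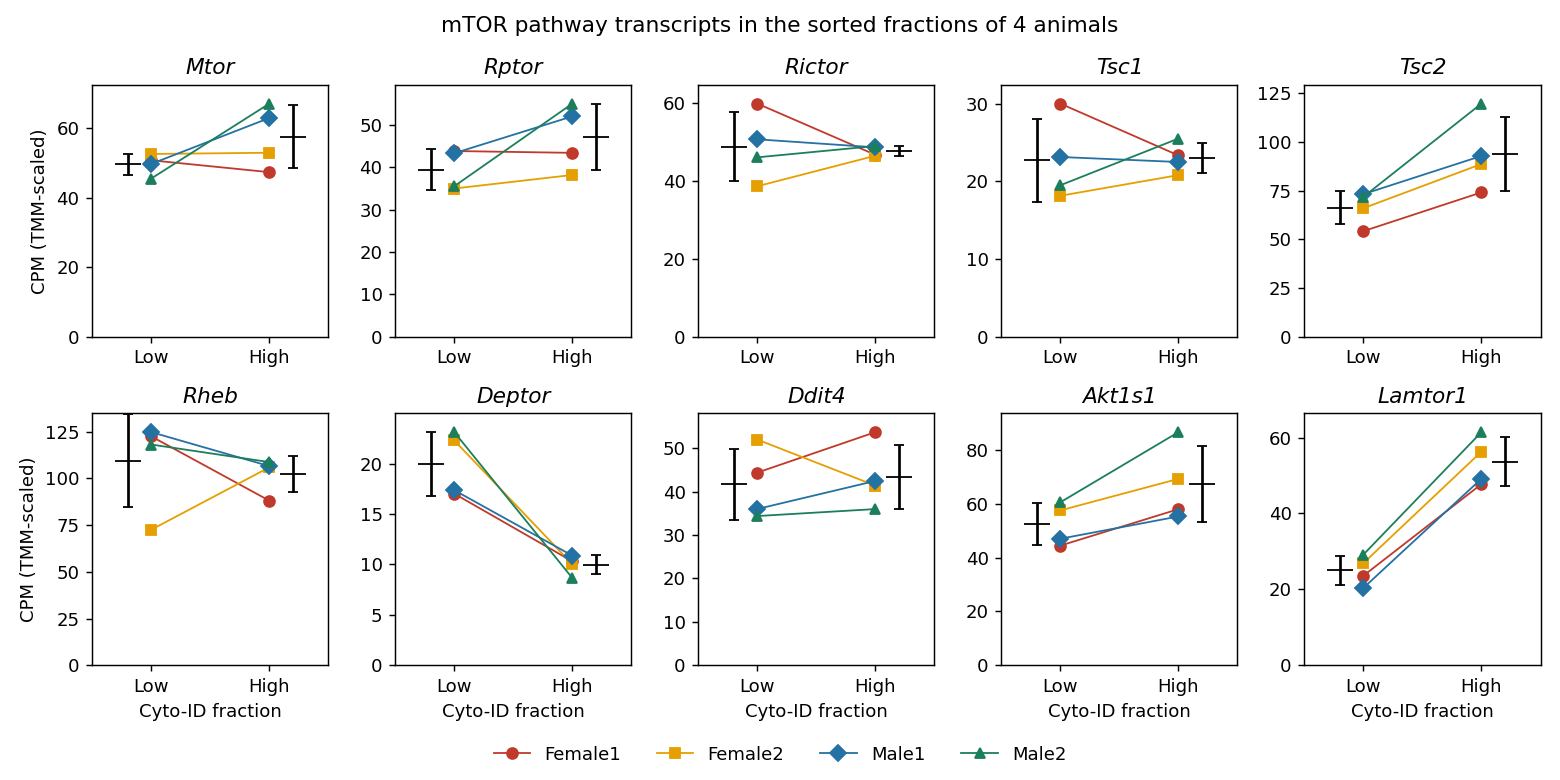
CPM (TMM-scaled) of the 10 genes in the Cyto-ID Low and High library of each animal, joined by a line per animal; crosses with bars give the mean ± SD of 4 libraries, and each panel has its own axis from 0. Under this scaling the lines of Lamtor1, Tsc2 and Akt1s1 rise in all 4 animals and those of Deptor fall in all 4, while those of the other 6 genes go both ways.

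Lamtor1, the lipid-anchored subunit that tethers Ragulator to the lysosomal membrane, had the largest log2 fold change of the 10 under TMM over all 8 libraries (with total counts that of Deptor was larger). Its level was 23.6 (Female1), 26.9 (Female2), 20.3 (Male1) and 29.1 CPM (Male2) in the Low fraction, and 47.7, 56.3, 49.2 and 61.4 CPM in the High fraction of the same animals. The lowest High library stood well above the highest Low library, and every animal showed the difference. Mean levels were 25.0 ± 3.8 and 53.7 ± 6.4 CPM (SD, n = 4 each), and the fitted log2 fold change was 1.10 (SE 0.16, 95% interval 0.75 to 1.45, adjusted p = 0.000311 in edgeR), or 2.15-fold. Within animals the log2 difference was 1.02 to 1.27. Under total-count scaling it was 0.53 (adjusted p = 0.00748), and without High Male2 it was 1.02 (adjusted p = 0.000851). Lamtor1 lies at chr7:101905904-101926675 (GRCm38, plus strand). Its annotated exons share 600 bases (18.7%) with those of Lrrc51 on the other strand, which reached 1.12 CPM in Low and 0.492 CPM in High. The strandedness of the counting is not given in the sources used here, so reads of the shared bases cannot be assigned to a strand.

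The other Ragulator and Rag genes were read beside it. Of 12 genes of the Rag GTPases, the other Ragulator subunits and the folliculin complex, 11 were tested and Rragb was not. Of these, 5 rose, 0 fell and 6 did not pass, with a median log2 fold change of 0.72. That median is the value of Rragd, a Rag gene that did not pass (adjusted p = 0.240 in edgeR). Rragd was scarce, at 0.417 ± 0.181 CPM in Low and 0.656 ± 0.318 CPM in High. The share called, 45.5%, is near the 48.7% of all tested genes, of which 23.4% were higher. Under total-count scaling 1 of the 11 rose and 1 fell, with a median of 0.21, again that of Rragd, where all genes had −0.64. Slc38a9, a lysosomal arginine transporter that signals to the Rags, rose from 6.82 ± 0.78 to 14.6 ± 2.0 CPM (log2 fold change 1.09, SE 0.16, adjusted p = 0.000434 in edgeR). Fnip2, a partner of folliculin, rose from 30.8 ± 10.9 to 68.5 ± 14.2 CPM (1.16, SE 0.23, adjusted p = 0.00219), and with total counts its value of 0.62 no longer passed (adjusted p = 0.0527).

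Ragulator itself has 5 subunits, and they did not all pass the test. Lamtor2, singled out here after its values were seen, as are Lamtor4 and Rragc, rose from 33.9 ± 1.9 to 61.6 ± 11.7 CPM (log2 fold change 0.86, adjusted p = 0.00119 in edgeR). Lamtor4 rose from 18.7 ± 2.5 to 35.6 ± 8.8 CPM (0.92, adjusted p = 0.00279). Neither call was kept under total-count scaling (0.28, adjusted p = 0.0603, and 0.34, adjusted p = 0.0839). Lamtor3 (0.28, SE 0.17, adjusted p = 0.198) and Lamtor5 (0.21, SE 0.13, adjusted p = 0.210) did not pass, and under total-count scaling their values were −0.28 and −0.34. Among the Rags, which form obligate heterodimers, Rragc rose from 72.4 ± 6.9 to 128 ± 31 CPM (0.83, adjusted p = 0.00484; total counts 0.24, adjusted p = 0.132) and Rraga did not pass (0.37, adjusted p = 0.0806; total counts −0.22).

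The starts of the members and of this group were examined for CACGTG, the E-box core that MiT/TFE factors of the lysosomal gene programme and Myc family factors are known to recognise. RefSeq windows on GRCm38.p6, from 250 bases before to 50 after each gene's start, were matched for 9 of the 10 members, and Deptor was not matched. CACGTG, which reads the same on both strands, lay in 2 of these 9 windows, those of Lamtor1 and Rheb, and in 7.15% of 32851 mouse promoters of the same length (9.49% of the 14361 windows of tested genes). The AP-1 motif TGANTCA, also searched on both strands and able to share letters with CACGTG only at its ends, lay in 0 of the 9 and in 7.81% of all promoters. The 150 bases before the start are shown 5′ to 3′ for Lamtor1, for Lamtor4 and Rragc, the 2 genes of the list that rose and hold the motif, for Rheb, whose level did not differ past the threshold, and for Tsc2, which has no match. Capitals mark CACGTG. Lamtor1 is read from chr7:101905687-101905836 (plus strand), Lamtor4 from chr5:138255332-138255481 (plus), Rragc from chr4:123917283-123917432 (plus), Rheb from chr5:24842362-24842511 (minus) and Tsc2 from chr17:24632628-24632777 (minus).
Lamtor1: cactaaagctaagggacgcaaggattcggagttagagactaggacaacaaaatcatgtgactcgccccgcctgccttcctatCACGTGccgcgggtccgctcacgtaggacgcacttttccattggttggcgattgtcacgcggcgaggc
Lamtor4: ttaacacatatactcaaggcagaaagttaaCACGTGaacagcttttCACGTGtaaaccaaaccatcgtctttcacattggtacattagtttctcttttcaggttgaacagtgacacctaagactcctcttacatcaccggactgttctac
Rragc: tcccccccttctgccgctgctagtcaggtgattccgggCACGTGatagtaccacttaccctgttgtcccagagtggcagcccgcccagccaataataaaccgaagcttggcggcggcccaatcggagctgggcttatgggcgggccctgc
Rheb: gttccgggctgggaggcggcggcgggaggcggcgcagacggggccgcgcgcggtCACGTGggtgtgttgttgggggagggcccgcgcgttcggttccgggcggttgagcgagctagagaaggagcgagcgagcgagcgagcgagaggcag
Tsc2: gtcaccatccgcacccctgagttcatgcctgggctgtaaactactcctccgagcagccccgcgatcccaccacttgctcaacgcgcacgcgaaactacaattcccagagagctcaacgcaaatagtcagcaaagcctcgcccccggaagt

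The first base of the motif lies at −68 from the start in Lamtor1, at −120 and −104 in Lamtor4, at −112 in Rragc and at −96 in Rheb. These are RefSeq starts, which can differ from the GENCODE M21 positions used elsewhere. GENCODE M21 puts the 5′ end of Rheb at chr5:24842624, so the bases printed for Rheb lie inside that annotated gene. It puts the start of Lamtor1 at chr7:101905904. Of the 12 genes of the Rag, Ragulator and folliculin list, 11 had a window, and 4 of these held CACGTG: Lamtor4 and Rragc, which rose under TMM, Fnip1, which did not pass, and Rragb, which was not tested. The windows of Lamtor2, Slc38a9 and Fnip2, which also rose under TMM, held none, nor did those of Rraga, Rragd, Lamtor5 and Flcn. A match is a description of the letters in the window and not a measured binding site.

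Mtor, the kinase shared by both complexes, did not differ past the threshold. It stood at 50.8 (Female1), 52.6 (Female2), 49.8 (Male1) and 45.6 CPM (Male2) in the Low fraction and at 47.4, 53.0, 63.0 and 67.1 CPM in the High fraction. Both male High libraries were above every Low library, while the female High libraries lay within or next to the Low range. The log2 fold change was 0.20 (SE 0.14, 95% interval −0.11 to 0.52, adjusted p = 0.268 in edgeR), and with total counts it turned to −0.36 (adjusted p = 0.0425). Mtor lies at chr4:148448611-148557683 on the plus strand.

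Raptor and Rictor, the subunits that define the complexes, did not pass either. Rptor, which presents substrates to mTORC1, ranged from 35.0 to 43.9 CPM in Low and from 38.2 to 55.1 CPM in High (log2 fold change 0.25, SE 0.15, 95% interval −0.08 to 0.58, adjusted p = 0.203 in edgeR; total counts −0.31, adjusted p = 0.115). Rictor, the mTORC2 scaffold, ranged from 38.7 to 59.9 CPM in Low and only from 46.5 to 49.0 CPM in High (−0.03, SE 0.15, 95% interval −0.37 to 0.30, adjusted p = 0.883; total counts −0.59, adjusted p = 0.00903). For both, Low and High overlapped. Their ratio within a library does not depend on library scaling: log2 Rictor over Rptor was 0.30 ± 0.14 in Low and 0.03 ± 0.20 in High (SD, n = 4). It was lower in High in 3 of 4 animals, and the difference of −0.27 did not pass a two-sided exact permutation test of 4 libraries against 4 (p = 0.114, adjusted p = 0.152 over 4 ratios).

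Of 10 further subunits and partners of the complexes, Rheb and TSC, 2 rose and 2 fell (40% called, beside 48.7% of all tested genes). With total counts 0 rose and 7 fell, and 0 rose without both Male2 libraries or without Low Female1, High Female2, Low Male1 or High Male2 alone. Mlst8, the subunit common to both complexes, was at 13.5 ± 2.0 CPM in Low and 14.5 ± 1.8 CPM in High (log2 fold change 0.10, adjusted p = 0.661 in edgeR). With total counts Mlst8 was called lower (−0.48, adjusted p = 0.0200 in edgeR). Of its exons, 997 bases (22.5%) are shared with Bricd5 on the other strand. Mapkap1, which encodes the mTORC2 subunit Sin1, was at 80.5 ± 11.9 and 106 ± 31 CPM (0.39, adjusted p = 0.172, and 0.0426 with the animal as a block; total counts −0.21, adjusted p = 0.295). Tti1, of the chaperone complex that assembles mTOR, rose from 13.6 ± 2.2 to 20.8 ± 4.8 CPM (0.61, adjusted p = 0.0298), and the call was lost without Low Female1, High Female2, Low Male1, Low Male2 or High Male2 (adjusted p 0.0557 to 0.116), without both Male2 libraries (0.101) and with total counts (0.025, adjusted p = 0.912). Prr5l, an mTORC2 partner, fell from 1.63 ± 0.38 to 0.404 ± 0.207 CPM (−1.97, adjusted p = 0.00341). Ddit4l, a paralog of Ddit4, fell from 2.38 ± 0.55 to 0.566 ± 0.431 CPM (−2.06, adjusted p = 0.00744). Prr5l and Ddit4l lie under 5 CPM, with only 2 and 3 counts in High Male2, and are named because they are the 2 that fell.

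Deptor and Akt1s1 encode the 2 members that bind and inhibit mTOR complexes, and of these Deptor alone passed. Deptor, which binds mTOR in both complexes, stood at 17.0 (Female1), 22.3 (Female2), 17.4 (Male1) and 23.1 CPM (Male2) in Low and at 10.3, 10.0, 10.9 and 8.64 CPM in High. The High libraries lay close together and all below the Low libraries. Means were 19.95 ± 3.21 and 9.96 ± 0.94 CPM (SD, n = 4), a log2 fold change of −1.002 (SE 0.16, 95% interval −1.37 to −0.64, adjusted p = 0.000704 in edgeR), which is 50.1% lower. The size differed among animals, with log2 differences of −0.72 (Female1), −1.15 (Female2), −0.67 (Male1) and −1.41 (Male2). Deptor rested on 168 counts in its lowest library. It kept its call under every alternative tried, with values from −1.55 (total counts) to −0.81. It lies at chr15:55112317-55259271 (plus strand), and 303 bases of its exons are shared with Gm9920 on the other strand.

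Deptor was also set against the kinase it inhibits, in a ratio that uses the same Deptor values again. The log2 ratio of Deptor to Mtor was −1.33 ± 0.28 in Low and −2.52 ± 0.32 in High (SD, n = 4), lower in 4 of 4 animals and without overlap. The difference of −1.19 gave p = 0.0286 in the exact permutation test, the smallest p that 4 against 4 allows. After adjustment over the 4 ratios it was 0.114 and did not pass. A ratio that alone reaches the smallest p cannot pass after this adjustment.

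Akt1s1 encodes PRAS40, which binds Raptor and is released when Akt phosphorylates it. Its level was 44.5 (Female1), 57.6 (Female2), 47.0 (Male1) and 60.6 CPM (Male2) in Low, and 58.0, 69.3, 55.3 and 86.7 CPM in High. All 4 animals had the higher value in High, but the groups overlapped because animals differed. The log2 fold change was 0.36 (SE 0.18, 95% interval −0.04 to 0.76, adjusted p = 0.128 in edgeR). With the animal as a replicate block, the estimate of 0.35 passed (adjusted p = 0.0246), and with total counts it turned to −0.23 (adjusted p = 0.177). Akt1s1 lies at chr7:44848991-44855421 (plus strand) and shares 89 exonic bases with Tbc1d17 on the other strand, which stood at 26.2 and 24.4 CPM.

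Tsc1, Tsc2 and Rheb form the switch in front of mTORC1, and of these Tsc2 alone passed. Tsc2, the GTPase-activating protein for Rheb, stood at 54.1 (Female1), 65.9 (Female2), 73.1 (Male1) and 71.7 CPM (Male2) in Low and at 74.1, 88.6, 92.7 and 119.6 CPM in High. The lowest High library was barely above the highest Low library, and High Male2 was the highest of all 8. The means of 66.2 ± 8.6 and 93.7 ± 19.0 CPM (SD, n = 4) gave a log2 fold change of 0.49 (SE 0.14, 95% interval 0.17 to 0.81, adjusted p = 0.0165 in edgeR), or 40.9% higher. Without High Male2 it was 0.41 and close to the threshold (adjusted p = 0.0481). Without both Male2 libraries it was 0.46 and did not pass (adjusted p = 0.0581), and without a filter on low counts it was 0.45 (adjusted p = 0.0584). Under total-count scaling it was −0.084 (adjusted p = 0.526), which is 0.55 above the median of all genes in that fit. Tsc2 lies at chr17:24595816-24632630 on the minus strand, and 693 bases (7.20%) of its exons are shared with Pkd1 on the plus strand, which stood at 46.2 CPM in Low and 35.0 CPM in High.

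Tsc1, which stabilises Tsc2, ranged from 18.1 to 30.0 CPM in Low and from 20.8 to 25.5 CPM in High (log2 fold change 0.02, SE 0.18, 95% interval −0.38 to 0.42, adjusted p = 0.934 in edgeR; total counts −0.53, adjusted p = 0.0287). The log2 ratio of Tsc2 to Tsc1 was 1.56 ± 0.48 in Low and 2.00 ± 0.24 in High (SD, n = 4). It was higher in High in 4 of 4 animals, but the groups overlapped and the difference of 0.44 did not pass the exact permutation test (p = 0.114, adjusted p = 0.152). That test does not use the pairing of libraries by animal. Tbc1d7, the other subunit of the TSC complex, rose from 6.23 ± 1.11 to 10.8 ± 3.7 CPM (0.79, adjusted p = 0.0271 in edgeR), a call lost without Low Female1, High Female2, Low Male1 or High Male2 (adjusted p 0.0712 to 0.110), without both Male2 libraries (0.0662) and with total counts (0.18, adjusted p = 0.486).

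Rheb, the small GTPase that activates mTORC1, had 122 (Female1), 72.5 (Female2), 125 (Male1) and 118 CPM (Male2) in Low and 88.0, 106, 106.5 and 109 CPM in High. Low Female2 and High Female1 stood apart below their groups. Rheb was lower in High in 3 of 4 animals and higher in Female2. The log2 fold change was −0.09 (SE 0.18, 95% interval −0.48 to 0.30, adjusted p = 0.715 in edgeR), and with total counts it was −0.65 (adjusted p = 0.00723). Without Low Female2 it was −0.23 (adjusted p = 0.146), and without both Female2 libraries −0.25 (adjusted p = 0.117).

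Ddit4 encodes REDD1, a stress-induced protein that restrains mTORC1 through the TSC complex and is known to respond to glucocorticoids, low oxygen and the integrated stress response. It ranged from 34.4 to 52.0 CPM in Low and from 36.0 to 53.7 CPM in High. It was higher in High in 3 of 4 animals and lower in Female2 (log2 differences 0.27, −0.33, 0.24 and 0.07), with a log2 fold change of 0.07 (SE 0.14, 95% interval −0.24 to 0.38, adjusted p = 0.726 in edgeR; total counts −0.48, adjusted p = 0.0509). Its log2 ratio to Mtor was −0.27 ± 0.21 in Low and −0.41 ± 0.45 in High (SD, n = 4; difference −0.14, exact permutation p = 0.6, adjusted p = 0.6). Dissociation stress genes summed to 14573 to 18296 CPM in Low and 9407 to 19909 CPM in High, and 1 of 9 rose and 2 fell (33.3% called, beside 48.7% of all tested genes).

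Lists of genes that share known inducers with Ddit4 were read against the 48.7% called among all tested genes, 23.4% higher and 25.3% lower. Of 8 glucocorticoid-responsive genes, 7 were tested, 1 rose and 2 fell (42.9% called). There were 2 that rose with the animal as a block, with RLE scaling, DESeq2 or a minimum of 10 counts, and without High Female1 or High Male1, and 4 that fell with total counts or with no filter on low counts. Fkbp5, a chaperone of the glucocorticoid receptor, rose from 10.3 ± 1.3 to 34.5 ± 6.4 CPM (log2 fold change 1.75, adjusted p = 4.42e-05 in edgeR). Klf9, a transcription factor, fell from 326 ± 74 to 115 ± 33 CPM (−1.49, adjusted p = 0.000398), and Tsc22d3, which encodes GILZ, fell from 54.9 ± 16.8 to 25.9 ± 3.6 CPM (−1.08, adjusted p = 0.00196). Of 11 hypoxia-responsive genes, 5 rose and 1 fell, with a median of 0.09 (54.5% called; total counts 5 and 4, −0.44; without Low Female2 or with no filter 2 fell). Egln3, a prolyl hydroxylase of the oxygen-sensing pathway, rose from 108 ± 35 to 463 ± 122 CPM (2.11, adjusted p = 0.000184), and Higd1a, a mitochondrial protein, rose from 16.9 ± 1.7 to 70.8 ± 7.9 CPM (2.07, adjusted p = 1.3e-05). Higd1a shares 683 exonic bases with Gm47112 on the other strand. The 1 that fell was Car9, a carbonic anhydrase, from 5.63 ± 1.71 to 2.43 ± 0.34 CPM (−1.21, adjusted p = 0.00398).

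**Figure D2:**
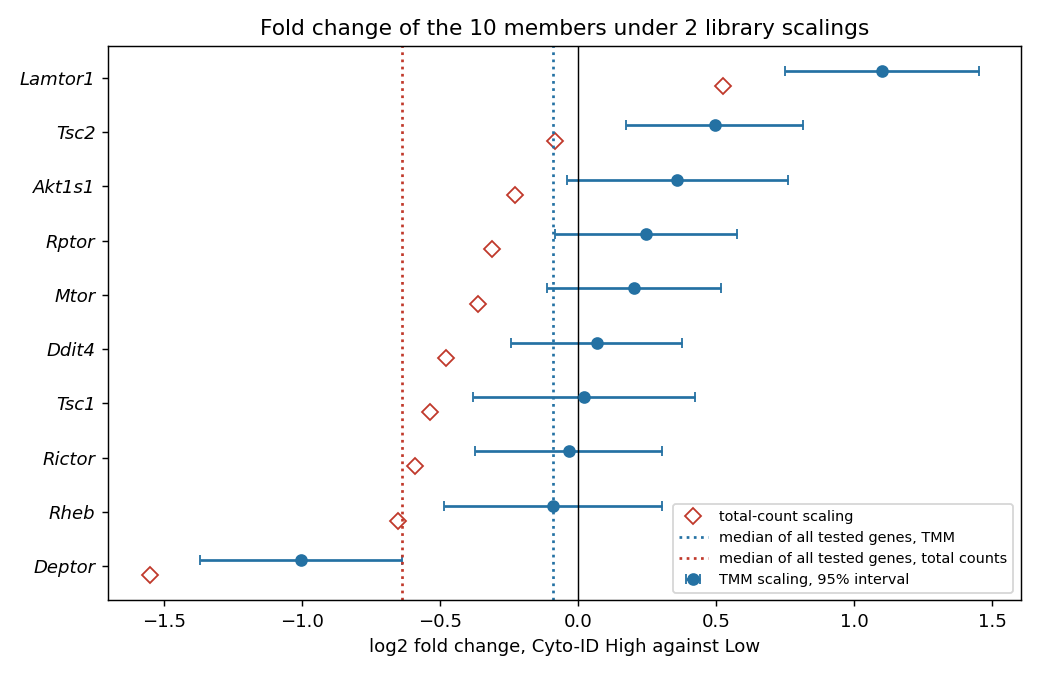
Log2 fold change (Cyto-ID High against Low) of the 10 genes under TMM scaling with 95% intervals (filled circles) and under total-count scaling (open diamonds); dotted lines mark the median of all 17344 tested genes under each. Lamtor1 is right of 0 and Deptor left of 0 under both scalings, while Tsc2 is at 0.49 under TMM and at −0.084 with total counts.

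Levels of different genes were compared as CPM per kilobase of the principal transcript, in which a long and a short transcript are on the same footing. In Cyto-ID Low the order of the mean levels was Rheb (61.3 ± 13.9), Akt1s1 (29.8 ± 4.5), Ddit4 (23.7 ± 4.6), Lamtor1 (22.3 ± 3.4), Tsc2 (11.004 ± 1.436), Rptor (5.98 ± 0.73), Mtor (5.80 ± 0.35), Rictor (5.25 ± 0.96), Tsc1 (2.96 ± 0.69) and Deptor (2.33 ± 0.38), all SD with n = 4. Neighbours whose libraries overlapped, and which are not separated in this order, were Akt1s1 with Ddit4, Ddit4 with Lamtor1, Rptor with Mtor, Mtor with Rictor, and Tsc1 with Deptor. On this length the mTOR kinase and the subunits that define its complexes had overlapping levels between neighbours, with Rheb, Akt1s1, Ddit4, Lamtor1 and Tsc2 above them.

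In Cyto-ID High the order differed at the top and was kept at the bottom. Rheb (57.3 ± 5.4 CPM per kilobase) was followed by Lamtor1 (47.9 ± 5.7), Akt1s1 (38.3 ± 8.1), Ddit4 (24.7 ± 4.2) and Tsc2 (15.6 ± 3.2). The kinase group came next with Rptor (7.16 ± 1.18), Mtor (6.73 ± 1.06) and Rictor (5.13 ± 0.14), then Tsc1 (3.00 ± 0.26) and Deptor (1.16 ± 0.11). Neighbours overlapped only for Rheb with Lamtor1, Lamtor1 with Akt1s1, and Rptor with Mtor. Unlike in Low, Mtor was thus separated from Rictor, and Akt1s1 from Ddit4. Lamtor1 stood at rank 4 in Low and rank 2 in High, where its libraries overlapped those of Rheb and of Akt1s1 (ranks 4 and 3 with the union of exons). On this length Deptor was lowest in both fractions and in High no longer overlapped Tsc1. The order depends on the length used. With the union of all annotated exons in place of the principal transcript, Rheb, whose length goes from 1784 to 7721 bases, is at rank 3 in Low and 4 in High, and Ddit4 is at rank 1 in both. Mtor then stands above Rptor and Rictor (4.92 against 2.93 and 2.89 in Low, 5.70 against 3.50 and 2.82 in High), and Tsc1 (1.92) is below Deptor (2.25) in Low.

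**Figure D3:**
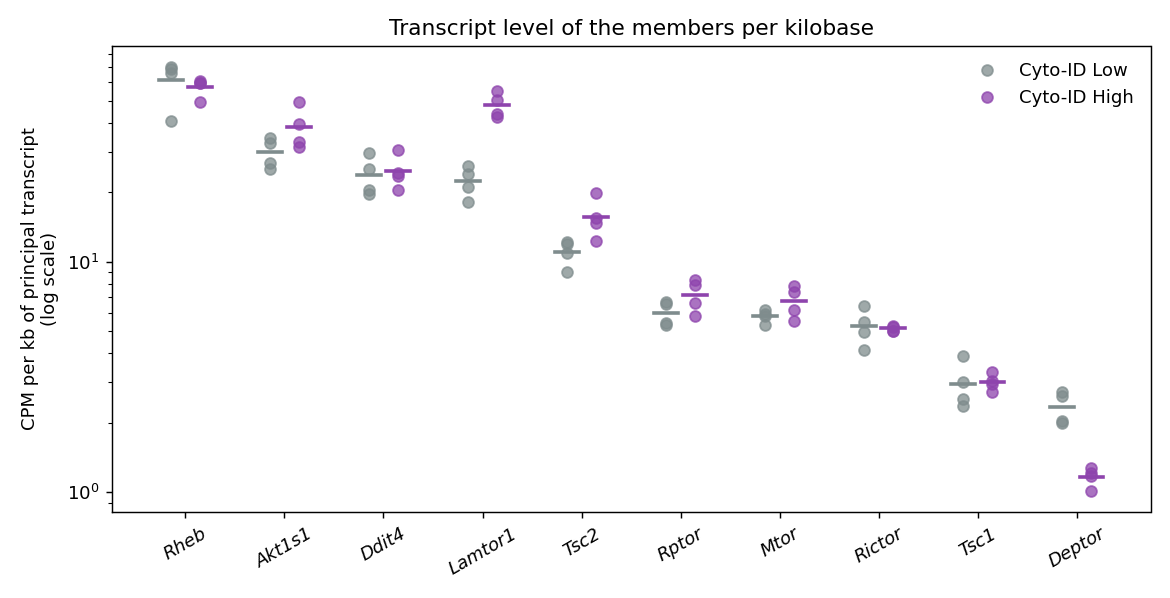
CPM per kilobase of principal transcript (log axis) for the 10 genes, ordered by their Low mean, in 4 Cyto-ID Low (grey) and 4 Cyto-ID High (purple) libraries; bars are means. Rptor, Mtor and Rictor lie between 4 and 9 in every library, and the fractions separate for Lamtor1, Tsc2 and Deptor.

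The differences between fractions were compared between females and males, 2 animals of each sex. In a test of the sex by fraction interaction, 0 of the 10 genes passed, as did 0 of all 17344 genes (0%), with an adjusted p of 0.99997 for each of the 10. At an unadjusted p under 0.05 there were 19 genes (0.11%), none of them among the 10. A calibrated test would give a share of about 0.05 with no sex difference at all. The test was therefore conservative here, and its lack of calls does not show that the sexes agree. The lowest unadjusted p of the 10 was that of Mtor (0.0912), with a High against Low log2 difference larger by 0.49 in males.

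The sensing arm upstream of the Rags was called at a share near that of all tested genes (48.7%). Of 18 genes of the GATOR complexes, KICSTOR and the amino acid sensors, 5 rose and 5 fell, with a median of −0.01 (55.6% called; total counts: 2 rose and 9 fell; without both Male2 libraries 3 fell). Nprl2, a subunit of GATOR1, which turns the Rags off, rose from 15.3 ± 1.3 to 33.4 ± 5.6 CPM (log2 fold change 1.13, SE 0.16, adjusted p = 0.000253 in edgeR). Sesn2, a leucine sensor that is also induced by stress, rose from 38.8 ± 9.3 to 118 ± 53 CPM (1.57, SE 0.26, adjusted p = 0.000720; without High Male2, its highest library, 1.28, adjusted p = 0.000571). Castor1, an arginine sensor, fell from 13.4 ± 3.0 to 5.12 ± 1.40 CPM (−1.39, SE 0.21, adjusted p = 0.000508). BC048403, a KICSTOR subunit, fell from 8.40 ± 2.00 to 4.95 ± 1.37 CPM (−0.77, adjusted p = 0.0232) and lost its call without High Female1, Low Female2, Low Male2 or High Male2 (adjusted p 0.0589 to 0.101) and without both Male2 libraries (0.128).

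**Figure D4:**
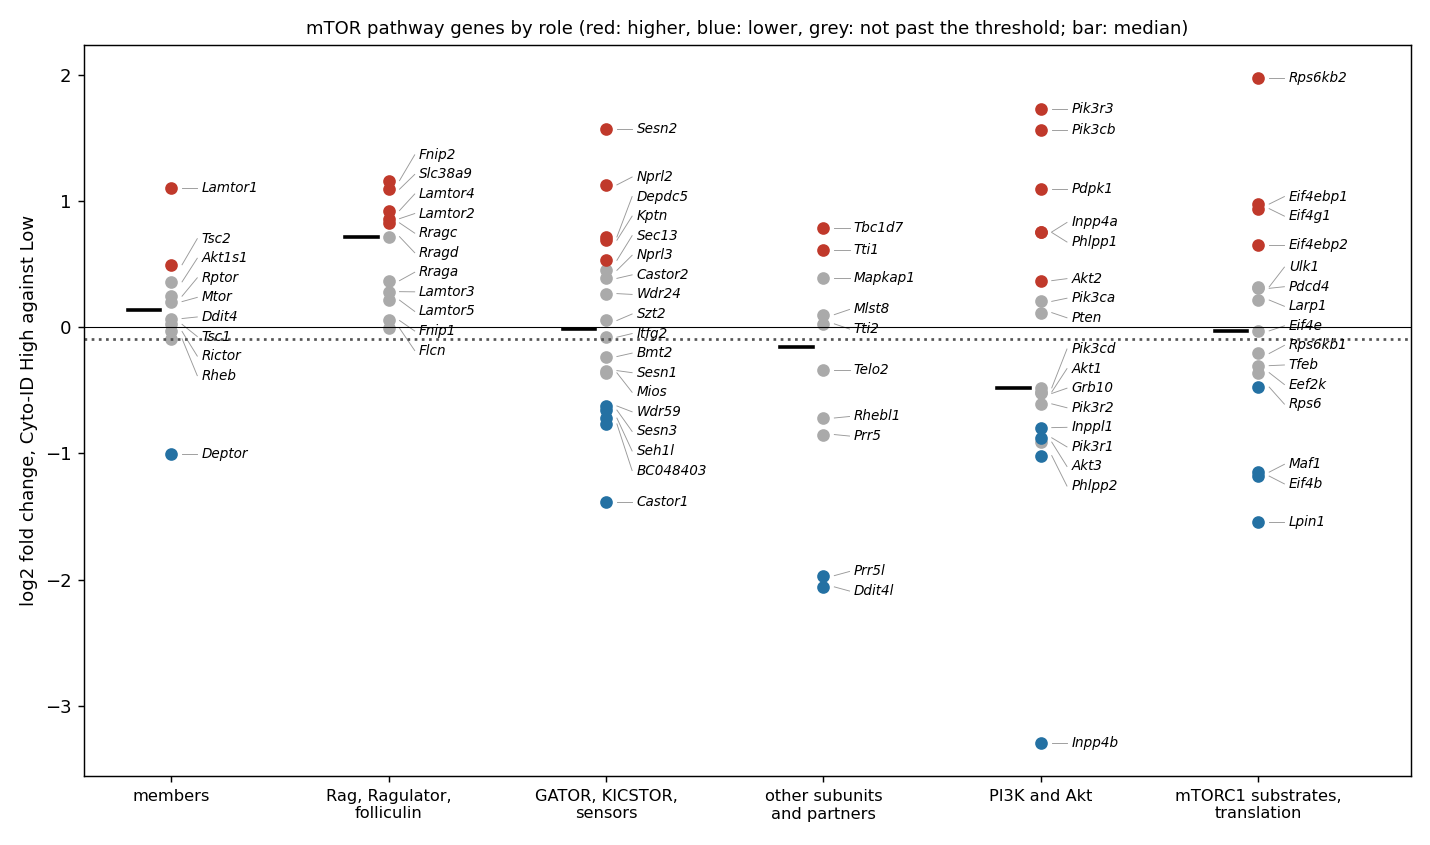
Log2 fold change (Cyto-ID High against Low, TMM) of the 10 genes and of 5 lists of other pathway genes; red points were higher and blue points lower past an adjusted p of 0.05, grey points did not pass, short bars are medians and the dotted line is the median of all tested genes. The list of Rag GTPases, Ragulator and folliculin genes has 5 higher and 0 lower genes under TMM (1 and 1 with total counts), and the other lists hold both directions.

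The growth factor arm was read against the same background of 48.7% called, 23.4% higher and 25.3% lower. Of 17 genes of the PI3K and Akt arm, 6 rose and 4 fell, with a median of −0.48 (58.8% called; 3 and 9 with total counts; 7 fell with the animal as a block, with no filter and with limma-voom). Pik3r3, a regulatory subunit of PI3K, rose from 4.40 ± 0.42 to 14.7 ± 3.8 CPM (log2 fold change 1.73, SE 0.20, adjusted p = 0.000102 in edgeR), and shares 1289 exonic bases with Gm49337 on the same strand. Pik3cb, a catalytic subunit, rose from 24.4 ± 1.6 to 72.0 ± 12.7 CPM (1.56, SE 0.16, adjusted p = 4.07e-05). Inpp4b, a phosphatase that degrades a PI3K product, fell from 9.80 ± 2.64 to 0.992 ± 0.355 CPM (−3.30, SE 0.32, adjusted p = 3.33e-05), the largest change in this list. Phlpp2, a phosphatase of Akt, fell from 9.85 ± 1.02 to 4.87 ± 0.97 CPM (−1.02, SE 0.19, adjusted p = 0.00156).

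Downstream, 15 of 16 genes of mTORC1 substrates and cap-dependent translation were tested, and 4 rose and 4 fell, with a median of −0.03 (53.3% called, near the 48.7% of all tested genes; 3 and 10 with total counts). Rps6kb2, a ribosomal protein S6 kinase, rose from 20.4 ± 4.0 to 80.8 ± 20.3 CPM (log2 fold change 1.97, SE 0.21, adjusted p = 5.18e-05 in edgeR), while its paralog Rps6kb1 did not pass (−0.21, adjusted p = 0.294). With total counts Rps6kb1 was called lower (−0.78, adjusted p = 0.00093 in edgeR). Rps6kb2 shares 1224 exonic bases (23.7%) with Ptprcap on the other strand. Eif4ebp1, a repressor of cap-dependent translation that mTORC1 phosphorylates, rose from 21.1 ± 2.8 to 41.3 ± 8.1 CPM (0.98, SE 0.17, adjusted p = 0.00103). Eif4b, an initiation factor, fell from 770 ± 113 to 341 ± 66 CPM (−1.18, SE 0.19, adjusted p = 0.000665). Lpin1, a phosphatidate phosphatase that mTORC1 phosphorylates, fell from 13.9 ± 3.2 to 4.83 ± 1.51 CPM (−1.55, SE 0.22, adjusted p = 0.000295). These are transcript levels, and the phosphorylation of these proteins was not measured.

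The genes whose log2 CPM followed that of the most changed members most closely over the 8 libraries were, among 10006 genes with a mean of at least 5 CPM, Tuba8, Sept5 and Lrmp for Lamtor1 (Pearson r 0.999 for each) and Fam214a (0.989), Tpst1 (0.987) and Rhoq (0.984) for Deptor. These values describe the same 8 libraries, which differ first of all by fraction, so the correlations include the difference between the fractions.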

How the data were processed

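RNA of 8 sorted fractions was measured by bulk RNA sequencing. The unit deposited by the authors is the raw count by gene symbol, in a single table: its values are whole, and totals differ between libraries. Per the submitters' processing notes, STAR 2.7.3, GRCm38 and DESeq2 were used; the counting tool, annotation, strandedness and filters are not given in the sources used here. Columns were matched by animal and fraction, taking the Negative and Positive of titles and columns as the Cyto-ID Low and High of the treatment label, with 0 left unused, and 0 rows lacked a gene name.

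The main test was run in edgeR 4.0.16 (R 4.3.3), with genes kept by filterByExpr, TMM scaling, glmQLFit and glmQLFTest of fraction with sex as covariate over all 8 libraries, and Benjamini-Hochberg adjustment over 17344 genes at a threshold of 0.05. The standard error is the absolute log2 fold change over the root of F; the prior count of log2 CPM was 2. The script was tested on simulated data. Ratios of members were compared by exact permutation of the libraries, without their pairing by animal. Positions and exon lengths are from GENCODE M21 (GRCm38), and promoters from RefSeq GRCm38.p6. Alternatives were other scalings, filters and dispersion settings, DESeq2 1.42.0, limma 3.58.1 (voom), no covariate, a replicate block and leaving libraries out.

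The members and lists were chosen with earlier results of these data known. All 10 members are named, and from each list up to 2 genes per direction with the largest called change and a mean of at least 5 CPM. Exceptions are stated. Mlst8, Mapkap1, Lamtor3, Lamtor5, Rraga, Rragd and Rps6kb1, which were not called, and Car9 were added after their values were seen. Same-named libraries were taken as pairs of 1 animal from the labels' animal names and the sort of 1 suspension. Deviations from fraction means correlated at 0.43 (Female1), 0.32 (Female2), −0.02 (Male1) and 0.28 (Male2), and at −0.37 to 0.35 between animals, so the pairing of Male1 rests on the name. No pair of libraries of a group agreed within sampling noise. The labels name separate animals. Intervals are for the fitted difference between the fractions, from the main fit with sex as covariate and without the animal as a block.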

Additional observations from a re-analysis of the deposited data

Results flagged for a closer look

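Each group of 4 libraries was examined for a library far from the other 3, for the members and the marker sums, 36 groups in all, of which 4 were singled out; chance singles out about 1 group in 20. Rheb in Low Female2 (72.5 CPM) lay below the other Low libraries, and Rheb in High Female1 (88.0 CPM) lay below the other High libraries. Rheb was higher in High in Female2 and lower in the other 3 animals. The summed gastric epithelium markers were 17.3 CPM in Low Female2 and 108 CPM in High Female2, above every other library of their fraction. Without both Female2 libraries Rheb had a log2 fold change of −0.25 in place of −0.09 (adjusted p = 0.117 in edgeR), Lamtor1 stayed called at 1.13, and Deptor at −0.91 (adjusted p = 0.0170).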

How the results depend on the processing

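Of 42 genes named by rule, 30 kept direction and side of the threshold under every alternative run, and 2 more, Rptor and Ddit4, changed sign without being called. Lamtor1 ran from 0.53 to 1.21 (adjusted p 1.9e-09 to 0.00748) and Deptor from −1.55 to −0.81 (adjusted p 3.75e-06 to 0.0170), both called throughout. Scaling by total counts changed most: 1 member was higher (2 with TMM) and 5 were lower (1 with TMM), the wider lists had 18 higher and 55 lower genes (32 and 26 with TMM, of 106 tested), and, of the members called under either scaling, Mtor (−0.36), Tsc1 (−0.53) and Tsc2 (−0.084) reversed. Rptor (−0.31), Ddit4 (−0.48) and Akt1s1 (−0.23) also turned negative and were called under neither. A single member was higher, 1 in place of 2, without a filter on low counts and without both Male2 libraries, since Tsc2 then missed the threshold; its adjusted p ran from 0.000905 to 0.526 over all alternatives. Leaving out single libraries kept 2 members higher and 1 lower throughout. With the replicate block 4 members were called, Akt1s1 in addition (0.35, adjusted p = 0.0246, within a range of 0.0246 to 0.358), and 9336 of all genes in place of 8440; no other member's call changed. Without a filter 35027 genes were tested and 25.0% called. Deptor's 168 counts in its lowest library set the limit of depth among the members.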

Other observations

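Outputs linked to mTOR that lie outside the report's groups were also measured. Of 12 amino acid transporters and ATF4 targets, which mTORC1 is known to induce through ATF4, 4 rose and 5 fell, with a median log2 fold change of −0.06 (75% called, beside 48.7% of all tested genes; 3 and 8 with total counts; 3 fell without both Male2 libraries). Slc7a11, the cystine transporter, rose from 8.40 ± 2.86 to 57.0 ± 10.2 CPM (2.77, SE 0.28, adjusted p = 4e-05 in edgeR), and Trib3, a stress-induced pseudokinase, rose from 3.41 ± 1.45 to 18.0 ± 2.0 CPM (2.42, SE 0.26, adjusted p = 6.36e-05). Slc1a5, a glutamine transporter, fell from 62.3 ± 4.7 to 16.6 ± 4.1 CPM (−1.91, SE 0.17, adjusted p = 2.34e-05), and Slc7a5, which carries leucine into cells, fell from 77.1 ± 12.8 to 49.5 ± 12.5 CPM (−0.65, SE 0.17, adjusted p = 0.0119). The values after each ± are SDs of 4 libraries.

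Of 7 AGC kinases downstream of mTORC2, 6 were tested, 0 rose and 3 fell under TMM, with a median of −0.03 (50% called, beside 48.7% of all tested genes). Sgk3, a kinase of endosomes, fell from 38.8 ± 7.2 to 12.8 ± 2.0 CPM (−1.60, SE 0.18, adjusted p = 8.67e-05 in edgeR), and Prkce, a protein kinase C, fell from 12.4 ± 1.5 to 7.85 ± 1.38 CPM (−0.66, SE 0.18, adjusted p = 0.0124). With size factors of the RLE method in place of TMM, with DESeq2 or with a minimum of 10 counts, 2 genes of this list rose and 3 fell, and 1 rose with the animal as a block or without Low Female1, High Female1 or High Male1.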
